A study of Mus musculus with 8 samples.

Results

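The 42 genes described here encode the core of the Wnt pathway. They are 19 Wnt ligands, 14 receptors (10 Frizzled genes, Lrp5, Lrp6, Ror2 and Ryk), the secreted antagonist Dkk1, 4 genes of the cytoplasmic destruction complex (Axin1, Axin2, Apc and Gsk3b) and 4 nuclear effectors (Ctnnb1, Tcf7l1, Tcf7l2 and Lef1). They were chosen by name from 21631 protein-coding genes, and the rule uses no measured value. An accessible region counted for a gene if its midpoint fell in the span of that gene, or, outside all spans, if that gene was the nearest within 50 kb. By that rule 282 of the 79484 regions assigned to any gene belonged to these 42.

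Open chromatin was mapped by ATAC-seq, in which a transposase cuts accessible DNA and inserts sequencing adapters, in long-term haematopoietic stem cells (HSC) flow-sorted from mouse bone marrow. All mice carried Vav1-cre and an iMOS allele of Bcl11a, in the form labelled Bcl11a-MUT or in the form labelled Bcl11a-WT. Within each genotype 2 sorted populations, T1 and T2, were profiled, which gives 4 groups (MUT T1, MUT T2, WT T1 and WT T2) with 2 libraries each. The age is given as 2 to 3 months for the samples and as 3 months for the design. The Vav1 promoter drives Cre in blood cells and their stem cells, and Bcl11a encodes a zinc-finger transcriptional repressor. What T1 and T2 stand for and which cells express the transgene are not given in the sources used here. The study asked how Bcl11a acts within HSC, and how wild-type HSC fare where it is overexpressed around them. Nothing in the labels says that the libraries of a group came from separate animals, so p-values over libraries measure only the spread between these libraries.

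Wnt proteins are secreted, lipid-modified ligands that bind Frizzled receptors. With the co-receptors Lrp5 and Lrp6 they stop the destruction complex of Axin, Apc and Gsk3b from marking beta-catenin, the product of Ctnnb1, for breakdown, and beta-catenin then works with TCF and LEF factors on target genes. Other Wnt signals pass through Ror2 and Ryk without beta-catenin. In bone marrow Wnt signalling is known for dose-dependent effects on the self-renewal of HSC.

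The deposited lists held 62232 to 74785 peaks per library on chromosomes 1 to 19 and X. The depth recovered from the peak statistics was 1.89 to 3.38 fragments of genome background per position. It was lowest in WT T2 replicate 2 (1.89), MUT T1 replicate 2 (2.03) and WT T2 replicate 1 (2.45), against 3.10 to 3.38 in the other 5 libraries, so that both WT T2 libraries were shallow. The first 5 Mb of chromosome Y held 5 to 9 peaks in replicate 1 of every group and 0 in replicate 2 of every group. The labels used here do not state the sex of the mice, none of the 42 genes lies on X or Y, and the part of this difference in the results was not tested. As a check of the labelled cell type, start regions present in all 8 libraries were counted at marker genes. They were found at 9 of 10 HSC genes, 2 of 5 B cell genes, 1 of 5 T cell genes, 1 of 5 granulocyte and monocyte genes, 3 of 5 erythroid genes and 4 of 5 stromal and endothelial genes. The exception among the HSC genes was Hoxb5 (6 libraries), while Gata1 of red cell precursors and Cdh5 of endothelium had no such region.

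Wnt pathway genes were accessible in these HSC in every role, ligands included. Each of the 42 genes had at least 1 region, against 79.0% of all protein-coding genes, with a median of 5 regions per gene against 2. A library calls a region when its list has a peak there. Of the 282 regions, 175 (62.1%) were called in all 8 libraries, against 56.1% of all regions assigned to a gene. Only 23 (8.16%) were called in a single library, against 11.2%. The genes were also longer than most, with a median span of 29.0 kb against 17.3 kb, and the part of length in these counts was not tested. At the gene start, taken as a region that comes within 1 kb of it, the call was present in all 8 libraries at 38 of the 42 genes (90.5%), against 65.3% of all genes. For the 30 of the 42 genes with a start site in the RefSeq promoter table the count was 28 of 30. Among all 17274 protein-coding genes with such a site it was 11286 (65.3%). The other 12 genes, such as Wnt5a, Lrp5 and Apc, have no entry there, and either end of their span was taken as a start. A region counted for them can therefore lie at the far end of the gene. With either span end for every gene the count was 36 of 42 (85.7%), against 64.8% of all genes.

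At their starts these genes had broad regions of moderate height. Fold enrichment, the authors' own value for a peak, is the ratio of fragments at the summit to the local background. Differences in it are read here only between regions of the same library. Ranks by the lowest value take the lowest over the libraries that call a region. The median start region called in all 8 libraries was 1638 bp wide at the 38 genes and 1304 bp at all 14134 genes that had one. Its fold enrichment had a median of 5.89 to 7.35 per library at the 38 genes and of 7.37 to 9.05 at all genes, and was lower at the 38 genes in 8 of 8 libraries. The RefSeq windows from 250 bases before to 50 after each start were rich in G and C, and their calls were frequent. Of 38 windows of 30 genes, 30 (78.9%) were called in all 8 libraries, against 61.2% of 21045 windows of 17274 genes, and 5 in none. Those 30 had a median of 70.3% G and C, against 62.0% in all windows called in 8 libraries and 56.7% in all windows.

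The start windows shown next hold the letters of a TCF and LEF core or of a BCL11A motif, except that of Tcf7l1, which is shown because the gene recurs in the comparisons. Windows of Wnt11 (TCAAAG), Fzd4 and Fzd9 (TGACCA in each) also hold such letters and are not printed. They are RefSeq sequences of build GRCm38.p6, written 5′ to 3′ on the strand of the gene, and the start site follows base 250. Capitals mark CTTTGA or its reverse complement TCAAAG, the core of TCF and LEF sites, and TGACCA or TGGTCA, a motif of BCL11A. The first base of each match lies 242 (TCAAAG) and 226 bases (TGACCA) before the start in Fzd1, 71 before it in Wnt5b, 174 and 117 before it in Dkk1, 77 before it in Gsk3b, 74 before it in Wnt10b and 36 after it in Wnt1. In Lef1, at a start site within the gene, TCAAAG begins 180 and 120 bases before the start, and TGGTCA, which overlaps the first of them, 183 before it. The Lef1 window was called in 0 libraries and that of Wnt11 in 5, and the other windows named here in all 8.
Fzd1 (chr5:4758167-4758466, minus strand): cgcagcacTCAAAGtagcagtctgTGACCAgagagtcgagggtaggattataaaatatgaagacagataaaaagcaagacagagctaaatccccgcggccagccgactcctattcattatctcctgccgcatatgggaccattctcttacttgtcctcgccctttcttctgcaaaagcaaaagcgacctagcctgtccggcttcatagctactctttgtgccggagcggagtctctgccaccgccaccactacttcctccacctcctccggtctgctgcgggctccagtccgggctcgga
Wnt5b (chr6:119449337-119449636, minus strand): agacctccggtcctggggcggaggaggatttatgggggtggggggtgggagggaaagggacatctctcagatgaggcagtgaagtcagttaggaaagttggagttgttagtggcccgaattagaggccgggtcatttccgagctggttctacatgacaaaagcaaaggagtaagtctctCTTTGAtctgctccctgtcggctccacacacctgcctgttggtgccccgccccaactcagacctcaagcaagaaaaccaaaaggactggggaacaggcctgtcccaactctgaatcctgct
Dkk1 (chr19:30549447-30549746, minus strand): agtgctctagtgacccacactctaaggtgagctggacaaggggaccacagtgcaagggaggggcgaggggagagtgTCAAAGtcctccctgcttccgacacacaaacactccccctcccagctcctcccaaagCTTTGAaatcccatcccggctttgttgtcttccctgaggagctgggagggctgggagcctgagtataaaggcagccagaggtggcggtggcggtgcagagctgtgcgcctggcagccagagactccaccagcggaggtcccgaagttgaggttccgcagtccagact
Gsk3b (chr16:38088751-38089050, plus strand): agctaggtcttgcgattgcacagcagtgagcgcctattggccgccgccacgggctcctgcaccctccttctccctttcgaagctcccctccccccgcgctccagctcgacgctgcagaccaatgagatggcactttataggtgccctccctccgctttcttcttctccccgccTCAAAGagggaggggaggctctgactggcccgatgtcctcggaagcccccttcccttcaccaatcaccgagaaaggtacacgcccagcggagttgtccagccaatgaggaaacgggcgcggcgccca
Wnt10b (chr15:98778101-98778400, minus strand): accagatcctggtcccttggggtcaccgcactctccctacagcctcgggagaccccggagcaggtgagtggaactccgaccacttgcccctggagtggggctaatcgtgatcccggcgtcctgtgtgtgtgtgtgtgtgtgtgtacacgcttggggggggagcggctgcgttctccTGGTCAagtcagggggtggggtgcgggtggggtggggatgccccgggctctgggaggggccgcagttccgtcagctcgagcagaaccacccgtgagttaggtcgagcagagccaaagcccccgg
Wnt1 (chr15:98789607-98789906, plus strand): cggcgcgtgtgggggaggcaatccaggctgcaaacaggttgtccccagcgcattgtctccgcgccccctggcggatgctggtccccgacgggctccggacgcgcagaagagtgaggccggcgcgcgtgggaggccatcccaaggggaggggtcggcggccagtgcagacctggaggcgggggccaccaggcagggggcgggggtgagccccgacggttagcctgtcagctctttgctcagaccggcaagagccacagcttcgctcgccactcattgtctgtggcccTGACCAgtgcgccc
Lef1 (chr3:131156044-131156343, plus strand): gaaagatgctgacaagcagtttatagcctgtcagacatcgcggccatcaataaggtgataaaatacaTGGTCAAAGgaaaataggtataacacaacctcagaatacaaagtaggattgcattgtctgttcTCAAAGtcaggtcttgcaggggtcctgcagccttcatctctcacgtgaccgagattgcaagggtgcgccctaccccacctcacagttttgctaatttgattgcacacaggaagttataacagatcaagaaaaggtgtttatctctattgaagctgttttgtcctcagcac
Tcf7l1 (chr6:72788996-72789295, minus strand): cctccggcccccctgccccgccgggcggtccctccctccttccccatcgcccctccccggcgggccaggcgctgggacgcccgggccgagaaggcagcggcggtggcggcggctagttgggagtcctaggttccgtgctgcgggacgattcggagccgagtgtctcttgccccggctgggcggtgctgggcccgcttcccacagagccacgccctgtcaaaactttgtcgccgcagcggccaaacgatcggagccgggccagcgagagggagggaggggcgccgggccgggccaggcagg

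Matches to the TCF and LEF core were present in 6 of the 38 windows (15.8%), against 14.4% of all windows, and matches to TGACCA also in 6 (15.8%), against 12.6%. Among windows called in 8 libraries they were in 4 and 5 of 30, against 10.8% and 10.2% of all such windows. The windows with 2 matches to the TCF and LEF core were those of Dkk1, whose product blocks Lrp5 and Lrp6 and which is known as a target of beta-catenin, and of Lef1. All motifs were searched on both strands. Of other blood factor motifs, TGTGGT of RUNX factors was in 1 of 38 windows (all windows 14.7%), AGATAA of GATA factors in 4 (9.68%) and CCGGAA of ETS factors in 2 (18.9%). A match is a run of letters, not a bound site.

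**Figure D1:**
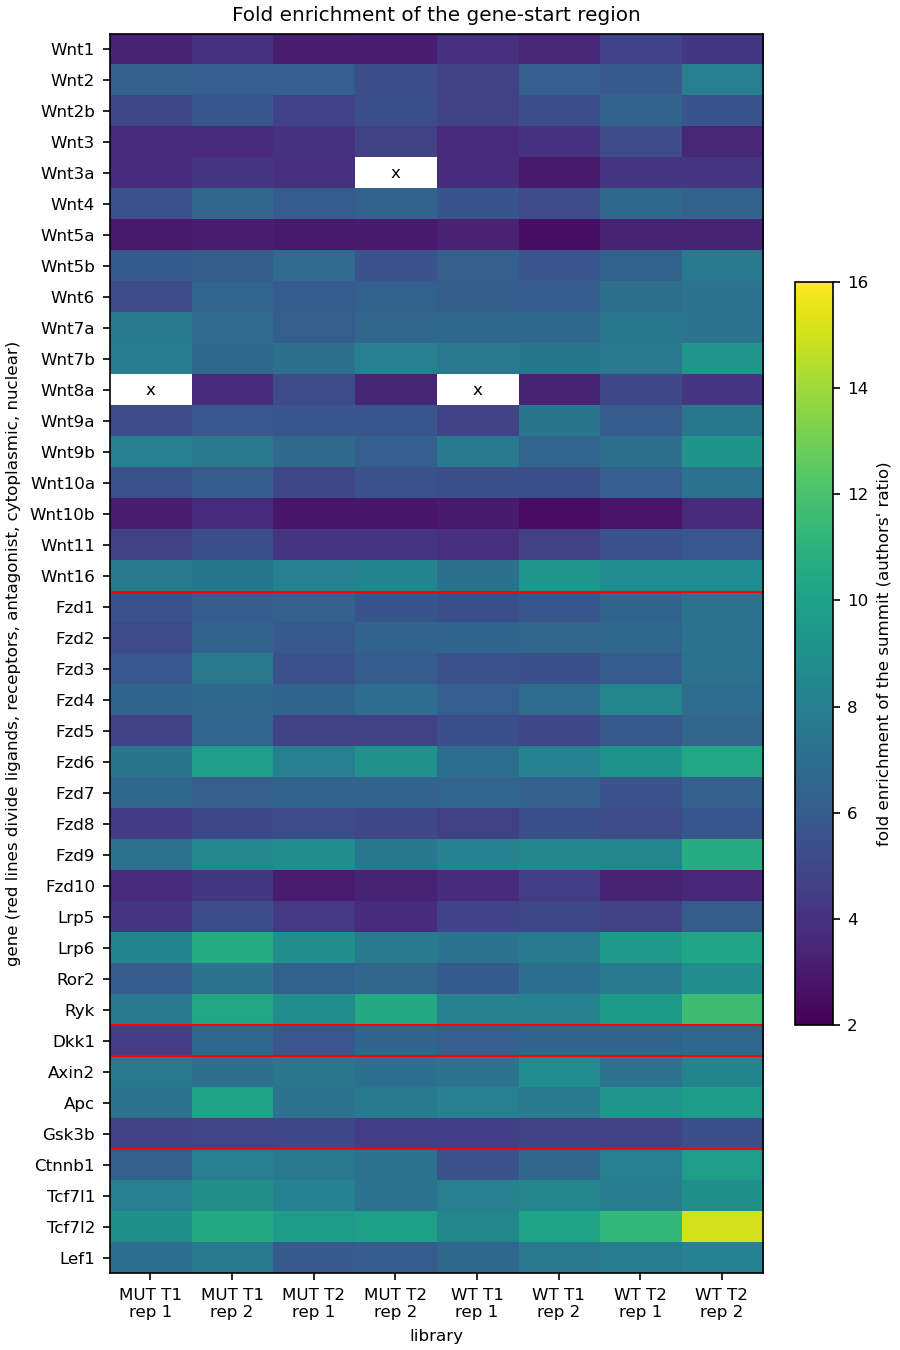
Fold enrichment of the gene-start region in each library (columns) for the 40 Wnt pathway genes that have one (rows), as the authors' ratio of summit to local background on a linear colour scale. A cross marks a library without a call, seen at Wnt3a and Wnt8a, and red lines divide the roles.

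Among the ligands, 16 of 19 had a start region called in all 8 libraries. The strongest were at Wnt16, with 7.14 and 9.37 in WT T1, 8.73 and 8.78 in WT T2, 7.62 and 7.46 in MUT T1 and 8.12 and 8.34 in MUT T2, and at Wnt7b, with 7.63 and 7.45 in WT T1, 7.56 and 9.30 in WT T2, 7.86 and 6.68 in MUT T1 and 7.15 and 8.09 in MUT T2. Wnt9b, which acts in kidney and facial development, had 7.66 and 6.56 in WT T1, 7.17 and 9.24 in WT T2, 8.06 and 7.56 in MUT T1 and 6.84 and 6.17 in MUT T2. Low values were seen at Wnt10b, a ligand that T cells and stromal cells are known to make, with 3.03 and 2.46 in WT T1, 2.75 and 3.70 in WT T2, 3.15 and 3.66 in MUT T1 and 2.84 and 2.87 in MUT T2, at Wnt5a, the main non-canonical ligand, with 3.28 and 2.51 in WT T1, 3.31 and 3.33 in WT T2, 2.94 and 3.14 in MUT T1 and 2.98 and 3.01 in MUT T2, and at Wnt1, with 3.87 and 3.49 in WT T1, 4.81 and 4.28 in WT T2, 3.32 and 4.01 in MUT T1 and 3.18 and 3.09 in MUT T2. In each library the Wnt16 start lay above those of Wnt10b, Wnt5a and Wnt1. The other ligands with a start region in all 8 libraries, among them Wnt2, Wnt4, Wnt6, Wnt7a and Wnt11, ranged from 3.49 to 8.005. Wnt3a, the canonical ligand most used in culture, was called at its start in 7 libraries (3.03 to 4.15) and missed in MUT T2 replicate 2. Wnt8a has no promoter entry, and the region counted for it, chr18:34546892-34547555, lies at the higher-coordinate end of its span. It was called in 6 libraries and missed in replicate 1 of MUT T1 and WT T1. Wnt10a, one of the 16, was also counted by a region at the higher-coordinate end of its span, chr1:74802913-74803751. The region at its other end, chr1:74791847-74792187, was called in 1 library only. Which end is the start was not given for either gene. Wnt8b had no start region.

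The ligand genes held 115 regions, 69 of them called in all 8 libraries. Wnt5b had the most (15, of which 10 in all libraries), followed by Wnt7b and Wnt11 (11 each, 8 in all libraries), and Wnt3 the fewest (1). The ligand region with the highest lowest value lay not at a start but 5.9 kb upstream of Wnt8b, at chr19:44487211-44487863, with 12.5 and 12.2 in WT T1, 12.5 and 14.3 in WT T2, 11.8 and 17.2 in MUT T1 and 13.4 and 13.3 in MUT T2. The next, beyond the downstream end of Wnt3a at chr11:59238907-59239557, had 13.01 and 12.98 in WT T1, 14.7 and 13.8 in WT T2, 11.7 and 13.04 in MUT T1 and 12.97 and 11.9 in MUT T2. Both genes thus had a strong distal region in every library beside a start that was missed in at least 1 library. Which gene such a region serves was not measured.

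Some ligand genes lie side by side. Wnt10b and Wnt1 on chromosome 15 point away from each other across a gap of 11650 bp, in a stretch that held 7 regions, 3 of them called in all libraries. Wnt6 and Wnt10a on chromosome 1 (gap 6696 bp) had 6 of 11 regions called in all libraries. Wnt9b and Wnt3 on chromosome 11 overlap by 1098 bp and had 6 of 8. The start region of Wnt3, chr11:103772680-103774621, is counted with Wnt9b for that reason, and its values were 3.70 and 4.03 in WT T1, 5.25 and 3.49 in WT T2, 3.72 and 3.66 in MUT T1 and 4.02 and 4.72 in MUT T2. Wnt3a and Wnt9a, also on chromosome 11, are 16097 bp apart. None of the 4 regions between them was called in every library, while 6 of the 14 in the stretch were.

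All 14 receptor genes had a start region called in all 8 libraries. Ryk, a receptor without kinase activity, had 8.21 and 8.16 in WT T1, 9.61 and 11.7 in WT T2, 7.66 and 10.4 in MUT T1 and 8.86 and 10.6 in MUT T2. Lrp6 had 7.34 and 7.80 in WT T1, 9.51 and 10.3 in WT T2, 8.32 and 10.7 in MUT T1 and 8.87 and 7.82 in MUT T2, and Fzd6 had 7.07 and 8.15 in WT T1, 9.15 and 10.3 in WT T2, 7.41 and 9.84 in MUT T1 and 8.05 and 9.06 in MUT T2. Fzd9 reached 8.20 and 8.52 in WT T1, 8.41 and 10.7 in WT T2, 7.28 and 8.58 in MUT T1 and 8.84 and 7.49 in MUT T2. The 3 lowest by their lowest value were Fzd10 (3.11 to 4.56), Lrp5 (3.78 to 6.12) and Fzd8 (4.51 to 5.72). The others were Fzd1 (5.36 to 7.35), Fzd2 (5.22 to 7.34), Fzd3 (5.40 to 7.61), Fzd4 (6.20 to 8.36), Fzd5 (4.77 to 6.62), Fzd7 (5.60 to 6.73) and Ror2 (5.98 to 8.88). Lrp5 and Lrp6, co-receptors of the same kind, therefore differed at their starts, and the Lrp6 value was above the Lrp5 value in each of the 8 libraries. The start region of Fzd4, the receptor of retinal vessels, is counted with the neighbouring gene Tmem135.

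Receptor genes held 80 regions, 51 of them (63.7%) in all libraries. Regions were most numerous at Lrp5 (15, 11 in all libraries), Ror2 (15, 9) and Ryk (12, 6), and the Frizzled genes had 2 to 5 each. Of all 175 regions called in every library, the one with the highest lowest value lies inside Ror2, a receptor tyrosine kinase for Wnt5a. This region, chr13:53109436-53110137, is 176.3 kb from the start and had 12.9 and 14.9 in WT T1, 18.2 and 16.1 in WT T2, 13.9 and 14.3 in MUT T1 and 13.8 and 11.9 in MUT T2. A region inside Lrp5 at chr19:3623475-3624494 had 9.87 and 9.40 in WT T1, 10.8 and 10.6 in WT T2, 8.59 and 9.17 in MUT T1 and 9.74 and 10.2 in MUT T2, well above the Lrp5 start in every library.

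Dkk1 had 4 regions, 3 of them in all libraries. Its start had 6.20 and 6.50 in WT T1, 6.53 and 6.70 in WT T2, 4.52 and 6.71 in MUT T1 and 5.80 and 6.53 in MUT T2. Both distal regions called in all libraries were higher than the start in every library. The region chr19:30539149-30540266 had 9.46 and 9.68 in WT T1, 12.4 and 11.4 in WT T2, 8.39 and 9.79 in MUT T1 and 8.25 and 9.20 in MUT T2. The region chr19:30553971-30555046 had 9.42 and 9.83 in WT T1, 8.74 and 10.6 in WT T2, 9.85 and 9.30 in MUT T1 and 9.82 and 8.07 in MUT T2. A further distal region, chr19:30504919-30505994, was called in 4 libraries only, at 4.14 to 5.22.

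By their lowest value the 2 strongest regions of the destruction complex lay inside Gsk3b, away from its start. Axin2, a scaffold and a classical target of the pathway, had 7.12 to 8.82 at its start. Its upstream regions called in every library had 5.46 to 7.08 and 5.43 to 7.93. Apc had 7.22 to 10.1 at its start and 9.09 to 11.1 in a region 17.8 kb outside its span. Gsk3b, the kinase of the complex, had 4.59 and 4.78 in WT T1, 4.86 and 5.35 in WT T2, 4.70 and 4.92 in MUT T1 and 5.01 and 4.53 in MUT T2 there, while 2 regions in its span were higher in every library. They were chr16:38197064-38197739, with 11.4 and 11.03 in WT T1, 14.3 and 10.6 in WT T2, 12.1 and 10.1 in MUT T1 and 12.2 and 11.1 in MUT T2, and chr16:38239375-38240347, with 9.90 and 11.1 in WT T1, 13.1 and 14.4 in WT T2, 11.4 and 12.5 in MUT T1 and 14.7 and 12.1 in MUT T2. No start region was found at Axin1 under either span end, although 2 of its 3 regions, inside the gene, were called in every library. In all, 14 of the 26 regions of these 4 genes (53.8%) were called in all libraries.

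Nuclear effectors had the most regions per gene (median 14). Of their 57 regions 38 (66.7%) were called in all 8 libraries. They are long genes, with a median span of 138.4 kb. Tcf7l2 had 22 regions (16 in all libraries), Tcf7l1 19 (11), Lef1 9 (6) and Ctnnb1 7 (5). Tcf7l2 had 3 start regions, and the highest lay over a start site within the gene, at chr19:55895105-55896094, with 8.43 and 10.1 in WT T1, 11.3 and 15.1 in WT T2, 8.97 and 10.5 in MUT T1 and 9.74 and 9.88 in MUT T2. Its upstream start site lies in the region chr19:55740905-55741923, which was lower in every library (4.94 to 6.51), and the neighbouring region chr19:55742476-55744726 had 2.99 to 3.85. A second region inside the gene, chr19:55915069-55916155, had 10.003 and 11.6 in WT T1, 14.1 and 13.01 in WT T2, 10.2 and 13.2 in MUT T1 and 11.2 and 11.4 in MUT T2. Ctnnb1 had 5.53 and 6.61 in WT T1, 8.03 and 9.80 in WT T2, 6.29 and 7.97 in MUT T1 and 7.67 and 7.28 in MUT T2 at its start and higher values in every library 18.4 kb upstream, at chr9:120914509-120915552, with 10.6 and 10.5 in WT T1, 11.9 and 12.1 in WT T2, 9.98 and 10.4 in MUT T1 and 11.04 and 10.5 in MUT T2. Tcf7l1, a TCF factor that mostly represses, had 8.09 and 8.36 in WT T1, 7.88 and 8.99 in WT T2, 7.99 and 8.91 in MUT T1 and 8.18 and 7.25 in MUT T2 at its start, and Lef1 had 5.92 to 8.22 at chr3:131157204-131158070, near a start site within the gene. A start region of Lef1 further upstream, chr3:131110860-131112788, had 4.23 to 5.49, and the windows of its start sites at the upstream end of the gene were called in 0 and 1 libraries.

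**Figure D2:**
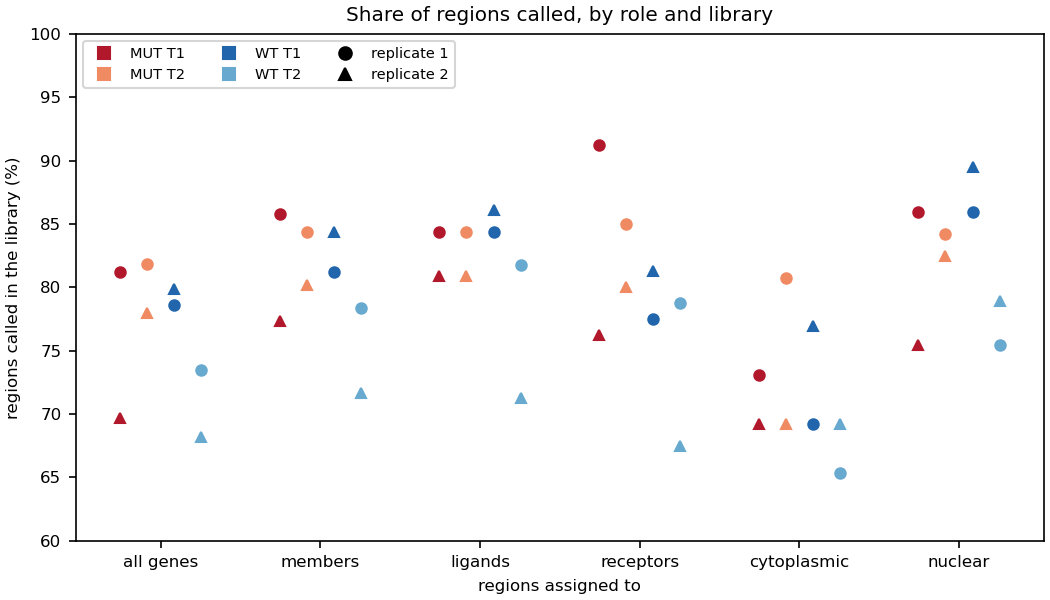
Share of regions called in each library (vertical axis, %, from 60) for all regions assigned to a gene, all Wnt pathway regions, and the ligand, receptor, cytoplasmic and nuclear sets. Circles are replicate 1 and triangles replicate 2, coloured by group; WT T2 replicate 2 called 71.6% and MUT T1 replicate 1 called 85.8% of the Wnt pathway regions.

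The 3 libraries with the lowest depth called the fewest Wnt pathway regions. Of the 282 regions, WT T1 called 229 and 238, WT T2 221 and 202, MUT T1 242 and 218 and MUT T2 238 and 226. In share that is 71.6 to 85.8%, beside 68.2 to 81.8% of all regions. The receptor genes had the widest range, from 54 calls in WT T2 replicate 2 to 73 in MUT T1 replicate 1, and the ligand genes ranged from 82 to 99. In the fold enrichment of start regions shallow libraries were not low. WT T2 replicate 2, the shallowest, gave the highest value of the 8 at 24 of 38 starts (63.2%), beside 45.0% of the starts of all genes. For this reason no difference between libraries is read from these values.

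Between groups few Wnt pathway regions differed, and none at a gene start. A gained region was called in both libraries of the group named first and in neither library of the other group, and a lost region the other way round. In at least 1 of the 4 comparisons of 2 groups, 23 of the 282 regions (8.16%) differed, against 9.53% of all regions. They belonged to 14 genes, and 28 genes had none, among them Dkk1 and the 4 genes of the destruction complex. None had its midpoint within 1 kb of a start, 13 lay inside a gene and 10 outside. By fold enrichment 17 of the 23 ranked below the middle of every list that held them. Place and rank were not counted for the differing regions of all genes, so they are not read as traits of Wnt pathway genes. They were narrow, with a median of 530 bp against 952 bp for the 175 regions called in all libraries, as were all 7575 differing regions of all genes (479 bp). Of the 23, 17 (73.9%) were missing from both WT T2 libraries, near the 69.8% of all differing regions (5287 of 7575). With 2 libraries against 2 a permutation test cannot give a p below 0.333, so the counts below are set beside the share of all regions.

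**Figure D3:**
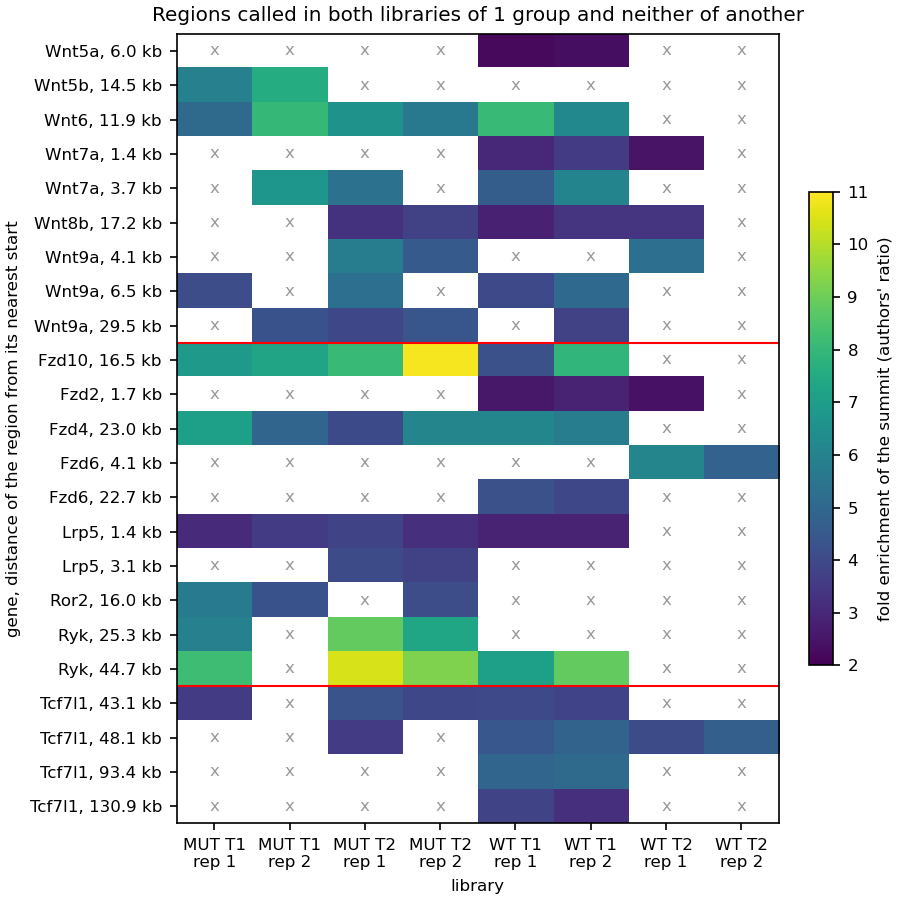
Fold enrichment in each library (columns) of the 23 Wnt pathway regions that were gained or lost in at least 1 comparison of 2 groups (rows, named by gene and distance from the nearest start in kb). A cross marks no call; the WT T2 columns hold the most crosses, since 17 of the 23 regions (73.9%, beside 69.8% of all differing regions) are missing from both.

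MUT T1 against WT T1 compares the T1 population of the genotypes. Tcf7l1 had 3 lost regions, all inside the gene, and it was the gene with the most. The region chr6:72695368-72695905 was called in WT T1 alone, at 4.95 and 5.13, and chr6:72657988-72658238 likewise, at 3.83 and 3.23. The third, chr6:72740492-72741430, had 4.45 and 4.85 in WT T1, 4.07 and 4.72 in WT T2 and 3.61 in MUT T2 replicate 1 only, with no call in MUT T1, so it was present in all WT libraries and in 1 MUT library. In all, 8 Wnt pathway regions (2.84%) were lost, against 2.13% of all regions, and 2 (0.709%) were gained, against 1.19%. Both shares lay near those of all regions. MUT T1 replicate 2 was the shallowest of these 4 libraries (2.03), and with lists of equal length the count turned to 6 gained (2.38%, all regions 1.73%) and 1 lost (0.397%, all regions 1.71%).

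The other losses in MUT T1 were at ligand and receptor genes. Wnt5a lost chr14:28510135-28510869 within the gene, called in WT T1 alone at 2.24 and 2.34. Fzd6 lost chr15:38983288-38983577, 22.7 kb outside its span, also in WT T1 alone (4.24 and 3.96). Wnt7a lost a region 1.4 kb from its start, chr6:91409673-91410204 (2.99 and 3.58 in WT T1, 2.49 in WT T2 replicate 1). Fzd2, for which no start site was given, lost chr11:102605798-102606377 within its span, 1.7 kb from the nearer end (2.59 and 2.86 in WT T1, 2.45 in WT T2 replicate 1). Neither was called in a MUT library. The Wnt8b region chr19:44510308-44511058 had 2.81 and 3.40 in WT T1, 3.36 in WT T2 replicate 1 only and 3.32 and 3.73 in MUT T2, with no call in MUT T1. Of the gains, Wnt5b had chr6:119529594-119530091 within its span, called in MUT T1 alone at 5.93 and 7.58, and Ror2 had chr13:53301893-53302422, at 5.70 and 4.28 in MUT T1 and 4.14 in MUT T2 replicate 2 only, with no call in WT T1 or WT T2. With lists of equal length 1 of the 8 losses kept its call, the third of Tcf7l1, and of the 2 gains that of Wnt5b.

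**Figure D4:**
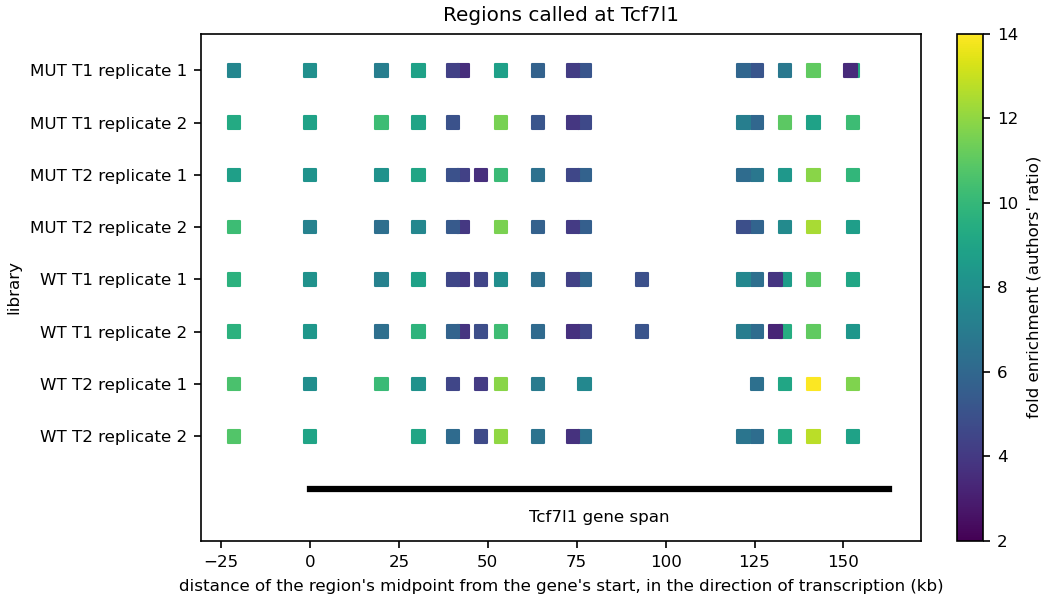
Regions called along Tcf7l1 in each library (rows), placed by the distance of the midpoint from the gene start in kb in the direction of transcription and coloured by fold enrichment. The black bar is the gene span; the WT T1 rows hold 18 and 18 regions, the WT T2 rows 13 and 14, and the MUT rows 14 to 16.

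MUT T2 against WT T2 makes the same comparison in T2, and here the direction was mostly a gain. Ryk gained 2 regions inside the gene. The first, chr9:102859891-102860474, had 5.93 in MUT T1 replicate 1 only and 8.85 and 7.31 in MUT T2, with no call in WT T1 or WT T2. The second, chr9:102879345-102879978, had 7.07 and 8.85 in WT T1, 8.21 in MUT T1 replicate 1 only and 10.4 and 9.26 in MUT T2, with no call in WT T2. Fzd10 gained a region 16.5 kb downstream, chr5:128617369-128617926, with 4.24 and 7.92 in WT T1, 6.84 and 7.25 in MUT T1 and 8.07 and 10.9 in MUT T2, with no call in WT T2. In total 9 regions (3.19%) were gained, against 3.82% of all regions, and 1 (0.355%) was lost, against 0.429%. Both WT T2 libraries were shallower than both MUT T2 libraries. With lists of equal length 9 were gained (3.57%, all regions 1.88%) and 5 lost (1.98%, all regions 1.64%), and 6 of the 9 gains kept their call.

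Of the gained regions, 4 were called in every library except those of WT T2. They were the Fzd10 region, one near Fzd4 (chr7:89427159-89427585, 4.03 to 7.07), one 1.4 kb from an end of Lrp5 (chr19:3687697-3688244, 2.87 to 3.84) and one in the span of Wnt6 (chr1:74759766-74760264, 5.10 to 8.05). The same pattern was not counted over the regions of all genes, so it is not read as a trait of these genes. Of all differing regions, 69.8% were missing from both WT T2 libraries, which were shallow. A second Lrp5 region, chr19:3587700-3588154, was called in MUT T2 alone, at 4.11 and 3.78. Tcf7l1 gained chr6:72745739-72746241, with 3.97 and 3.81 in WT T1, 3.58 in MUT T1 replicate 1 only and 4.30 and 3.94 in MUT T2, with no call in WT T2. Wnt9a gained chr11:59336062-59336799, with 3.73 in WT T1 replicate 2 only, 4.28 in MUT T1 replicate 2 only and 3.97 and 4.40 in MUT T2, with no call in WT T2. The single loss was near Fzd6, chr15:39042117-39042451, called in WT T2 alone at 6.09 and 4.84.

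Between the populations of MUT mice, MUT T1 against MUT T2 had 1 gained region (0.355%, all regions 0.605%), that of Wnt5b named above, and 3 lost (1.06%, all regions 1.74%). The losses were the Lrp5 region of MUT T2, the Wnt8b region and chr11:59302633-59302974 between Wnt3a and Wnt9a, which had 5.30 in WT T2 replicate 1 only and 5.76 and 4.54 in MUT T2, with no call in WT T1 or MUT T1. WT T1 against WT T2 had 12 gained regions (4.26%, all regions 3.82%) and 1 lost (0.355%, all regions 0.605%), the loss being the Fzd6 region of WT T2. Of the 12 gains, 6 were regions already named as gains of MUT T2, at Fzd10, Fzd4, Lrp5, Ryk, Wnt6 and Tcf7l1, in a comparison that shares the WT T2 libraries. A further 4 were the regions of WT T1 alone at Fzd6, Wnt5a and Tcf7l1 (2 regions). The last 2 lay near Wnt7a (chr6:91414813-91415291, 4.65 and 6.07 in WT T1, 6.71 in MUT T1 replicate 2 only and 5.36 in MUT T2 replicate 1 only, with no call in WT T2) and near Wnt9a (chr11:59300151-59300613, 3.99 and 5.09 in WT T1, 4.13 in MUT T1 replicate 1 only and 5.27 in MUT T2 replicate 1 only, with no call in WT T2). With lists of equal length MUT T1 against MUT T2 had 5 gained (1.98%, all regions 1.11%) and 2 lost (0.794%, all regions 1.19%), so the larger count changed sides. WT T1 against WT T2 then had 6 gained (2.38%, all regions 2.09%) and 5 lost (1.98%, all regions 1.72%), and 5 of the 12 gains kept their call.

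**Figure D5:**
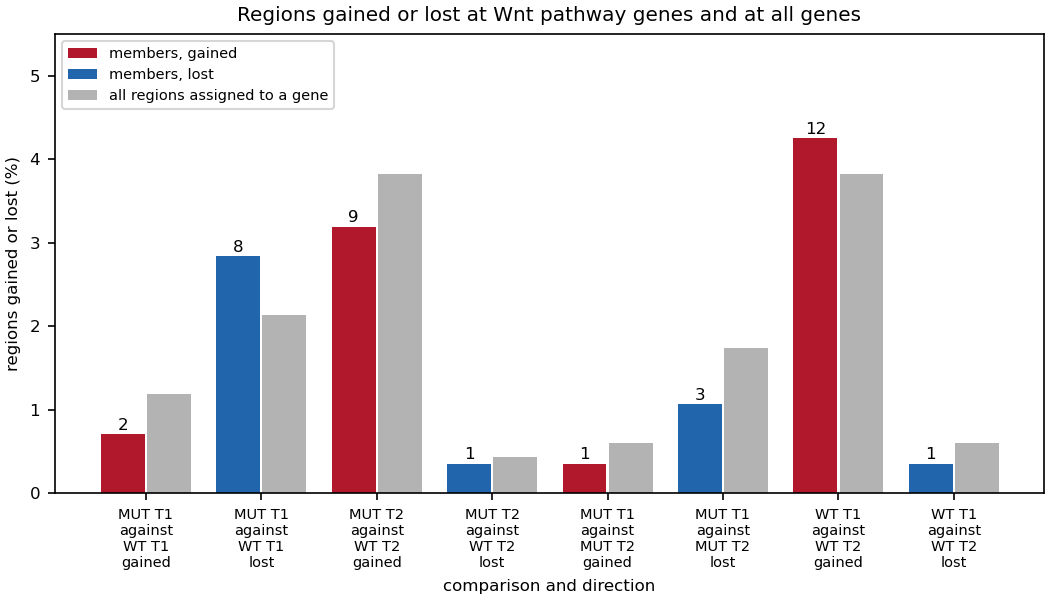
Share of regions gained (red) or lost (blue) at Wnt pathway genes beside the share at all genes (grey), in % of regions, for the 4 comparisons of 2 groups; the number over a coloured bar counts Wnt pathway regions. The tallest coloured bars, 12 regions (4.26%) and 9 regions (3.19%), are the gains of WT T1 and of MUT T2 against WT T2.

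In the lists as deposited no Wnt pathway region was called in all libraries of one genotype and none of the other. In all 4 MUT and no WT library 0 regions were called, against 0.204% of all regions, and in all 4 WT and no MUT library 0, against 0.0528%. Under an alternative 1 region met this rule as a gain. With lists of equal length it lay near Lrp5 (chr19:3687697-3688242, 0.397%, all regions 0.166%). With a −log10 q-value of at least 5 it lay in Wnt7a (chr6:91400346-91401114, 0.368%, all regions 0.204%). The deposited lists called each of these in 6 libraries. For T1 against T2 the counts were 0 against 0.0491% and 0 against 0.0289%. In the exact two-sided permutation test of calls per region, over 70 arrangements of the 8 libraries, 204 of 79484 regions had an unadjusted p below 0.05 by genotype and 62 by population. The smallest p these arrangements allow is 0.0286, and at that p the Benjamini-Hochberg adjusted value was 1, so the test could call no region and 0 passed. The lowest unadjusted p of a Wnt pathway region by genotype was 0.143. A difference of 3 calls between the genotypes was seen in 5 regions (1.77%, all regions 1.66%). They were those of Ryk (3 MUT, 0 WT) and Ror2 (3 and 0), of Wnt7a and Fzd2 (0 and 3 each) and of Tcf7l1 (1 and 4). By population there was 1 (0.355%, all regions 1.22%), the Wnt9a region in 0 T1 and 3 T2 libraries.

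Other genes of the pathway were followed through 58 genes in 8 lists of receptors, agonists, ligand processing, antagonists, cytoplasm, planar polarity, nucleus and targets. They had 389 regions, 230 of them (59.1%) called in all libraries, and a start region in all 8 libraries at 51 of 58 genes (87.9%, all genes 65.3%). All 9 cytoplasmic genes (Dvl1 to Dvl3, the casein kinases and others), all 7 planar polarity genes and all 3 target genes (Ccnd1, Myc and Sp5) had such a region. Tcf7, the TCF gene best known from T cells, had 11 regions, 9 of them in all libraries. The antagonist genes Sost and Nkd1 and the co-repressor gene Ctbp2 had no start region. These genes had 6 gained and 6 lost regions in MUT T1 against WT T1 (1.54% each, all regions 1.19% and 2.13%). In MUT T2 against WT T2 there were 18 gained (4.63%, all regions 3.82%) and 3 lost (0.771%, all regions 0.429%). MUT T1 against MUT T2 had 3 gained (0.771%, all regions 0.605%) and 6 lost (1.54%, all regions 1.74%), and WT T1 against WT T2 had 19 gained (4.88%, all regions 3.82%) and 2 lost (0.514%, all regions 0.605%). All 4 MUT libraries and no WT library called 2 of the regions (0.514%, all regions 0.204%), and the difference from the 0 of the 42 genes was not tested. One was inside Ror1, a receptor related to Ror2, at chr4:100321775-100322315, with 5.93 and 4.61 in MUT T1 and 5.46 and 4.87 in MUT T2. The other was inside Lgr6, a receptor for R-spondins, at chr1:134992036-134992500, with 3.35 and 3.98 in MUT T1 and 3.54 and 3.38 in MUT T2.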

How the data were processed

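Peak lists of 8 ATAC-seq libraries (5000 nuclei each) were used, 1 list per library, so peaks had been called per sample. Bowtie2, SAMtools, MACS2 and build mm10 are named in the submitters' processing notes, without versions. A shift of reads to the transposase cut sites is neither stated nor denied by the labels. For each peak the authors deposited a score, a position, the fold enrichment or ratio of summit to local background, and −log10 p- and q-values. No −log10 q-value was under 3.00. The score was not used.

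Depth was solved from these deposited values, the ratio and the −log10 p, since MACS2 writes the ratio of pileup plus 1 to background plus 1 and a Poisson tail. At least 99.9986% of pileups came out whole, within 0.001 of the −log10 p-value. The smallest summit of a peak was 10 to 13 fragments, so a call at background needed a fold of 3.19 to 3.80, and a region that is not called may be open below that.

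Overlapping peaks (1 bp or more) were merged into 90736 regions, of which 79484 were assigned to a gene of the RefSeq table of GRCm38.p6, the same assembly as mm10. A start region reaches within 1 kb of a RefSeq promoter start, or of either span end where the gene has no promoter entry. The 42 genes and all lists were chosen with earlier results of these data known. Named are all differing regions, the start regions, the 2 regions of each role with the highest lowest fold among those called in all 8 libraries and the genes with most regions; start regions are given per library, as a range, or in a range shared by several ligands. The 6 comparisons count regions called in all libraries of one side and none of the other. Calls were tested per region with an exact two-sided permutation test (smallest p 0.0286) and Benjamini-Hochberg adjustment. In a check of the code, simulated peak values and calls were recovered at 100%. They were made with the same formulas, so this does not test the deposited data. Alternatives were a stricter q-value, lists cut to 62232 peaks, overlap, assignment within 10 kb, each library left out, and a replicate block. Python 3.11.15, NumPy 2.4.6, SciPy 1.17.1, pandas 2.3.3 and matplotlib 3.10.9 were used.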

Additional observations from a re-analysis of the deposited data

Results flagged for a closer look

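The number of regions called at Tcf7l1 differed between genotypes in opposite directions in the T1 and T2 populations. It was 16 and 14 in MUT T1 and 18 and 18 in WT T1, a difference of -3.0 (MUT minus WT). In T2 it was 16 and 15 in MUT and 13 and 14 in WT, a difference of 2.0. In both populations every library of one genotype lay apart from those of the other, and the difference between the populations was not tested. Tcf7l1 was flagged because it differed between groups, and the share of all genes with such a separation was not counted. With 2 libraries against 2 a permutation test cannot give a p below 0.333. The genome background was 3.38 and 2.03 in MUT T1, 3.24 and 3.29 in WT T1, 3.21 and 3.10 in MUT T2, and 2.45 and 1.89 fragments per position in WT T2, so the genotype with fewer regions held the shallowest library of the comparison in both populations. MUT T1 replicate 1, the deepest library of its comparison (3.38), called 16 regions, also fewer than the 18 and 18 of WT T1. The part of depth in this result was not tested.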

How the results depend on the processing

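Of the 37 gains and losses counted over the comparisons of 2 groups, 34 kept their call among peaks with a −log10 q-value of at least 5 and 17 with lists of equal length. At the stricter q-value, 2 regions (0.735%, all regions 0.530%) were gained in MUT T1 against MUT T2. In all MUT against all WT 1 was gained (Wnt7a, chr6:91400346-91401114, 0.368%, all regions 0.204%). With lists of equal length MUT T1 against WT T1 had 6 gained and 1 lost, MUT T2 against WT T2 had 5 lost, MUT T1 against MUT T2 had 5 gained, WT T1 against WT T2 had 6 gained and 5 lost, and all MUT against all WT had 1 gained (Lrp5, chr19:3687697-3688242). Assignment within 10 kb left 1 gain in MUT T1 against WT T1. A planned overlap of 50% of the peak or of the region changed nothing, since each peak lies wholly in its region. When a peak had to cover 50% of the region (chosen after seeing the data), MUT T1 against WT T1 had 1 gained, MUT T2 against WT T2 had 23, MUT T1 against MUT T2 had 8 lost, WT T1 against WT T2 had 23 gained, 104 regions were called in all libraries and 25 genes had a start region there. Either span end for every gene, also added after seeing the data, gave 36 genes. With each library left out in turn fewer calls were required, so counts grew. Gained regions were then 4 to 13 and lost 9 to 18 in MUT T1 against WT T1 (the most gains without MUT T1 replicate 2, the most losses without MUT T1 replicate 1), 14 to 27 and 2 to 9 in MUT T2 against WT T2 (without WT T2 replicate 1 and WT T2 replicate 2), 4 to 12 and 5 to 15 in MUT T1 against MUT T2 (without MUT T1 replicate 2 and replicate 1), and 20 to 24 and 1 to 10 in WT T1 against WT T2 (without WT T2 replicate 1 and replicate 2). All MUT against all WT had 0 to 1 and 0 to 2, T1 against T2 had 0 to 0 and 0 to 1, regions called in all libraries numbered 175 to 181, and genes with a start region 38 to 39. Shares of all regions were not counted for assignment within 10 kb, cover of 50% of the region or a library left out. The counts under these settings are therefore not read as traits of Wnt pathway genes. Differences in calls between replicates correlated little between groups (−0.0016 to 0.066 over 6 pairs of groups, none over 0.1). These calls leave out chromosome Y, where replicate 1 and replicate 2 differed in every group. The correlations therefore cannot show that same-numbered libraries share nothing. A replicate block left 0 regions past the adjusted threshold by genotype and 0 by population, but its smallest p is 0.125, so neither form of the test could call a region. The cause of these changes was not tested.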
